A study of Mus musculus with 8 samples.

Results

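The 10 genes described here are 5 Toll-like receptors (Tlr2, Tlr3, Tlr4, Tlr5 and Tlr9), the adaptor Myd88, and 4 genes that NF-kB induces and that act back on the pathway (Nfkbia, Nfkbiz, Tnfaip3 and Zc3h12a). They were chosen by name, and all 10 symbols matched a single row of the 53465 genes in the deposited table. RNA was sequenced from 8 colon samples of mice on the B6 background, 4 of littermate controls that kept Arg1 (wild type) and 4 of mice with a conditional, cell-specific deletion of Arg1 (Arg1 ko), which encodes arginase 1. All had received 2.5% DSS (dextran sulfate sodium), which damages the lining of the colon, by drinking water over the first week and then plain water up to day 10, at 7 to 12 weeks of age and matched for age and sex. No group without DSS was analysed here, so the values say nothing on what colitis itself did to these genes. The cell type that lost Arg1 is not given in the labels, which limits what the ko group models. Values are regularised log2 values (rlog), in which read counts are adjusted for library size, converted to log2 and shrunk toward each gene's mean. A difference of 1 in rlog is a doubling, and differences below are Arg1 ko minus wild type.

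Toll-like receptors sit on the cell surface or in endosomes and bind molecules typical of microbes. All but Tlr3 signal through Myd88 to the IkB kinases, which free the transcription factor NF-kB from its inhibitors. NF-kB then switches on inflammatory genes together with its own brakes. In the gut, epithelium and resident myeloid cells both carry these receptors, and the pathway takes part in defence against bacteria as well as in repair after injury.

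The libraries differed in ways that touch the results. Arg1 itself was 5.59, 5.57, 5.02 and 5.58 in wild type 1 to 4 and 5.06, 4.87, 5.15 and 5.19 in Arg1 ko 1 to 4, a difference of -0.37 (limma adjusted p = 0.522; exact two-sided permutation p = 0.114, smallest possible 0.0286). The library labelled wild type 3 lay within the ko range, so Arg1 does not set it apart from the ko libraries. The deletion was cell-specific and the Arg1 difference passed neither test. This value alone therefore does not show which genotype the library had. Wild type 1 and 2 differed from the other 6 libraries in transcript length. The median deviation of genes with transcripts above 5000 bases, minus that of genes with transcripts below 1500 bases, was -0.73 and -0.39 in these libraries and 0.042 to 0.33 in the others. The protocol describes purified epithelial aggregates, yet markers of other tissue layers were present in all 8 libraries. Epcam, an epithelial adhesion molecule, had a mean of 15.45 ± 0.26 (SD, n = 4) in wild type, and Myh11, the myosin of smooth muscle, 14.68 ± 0.65 (SD, n = 4). In such bulk RNA, fewer cells of a type and less RNA per cell cannot be told apart.

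None of the 10 genes changed between Arg1 ko and wild type by the test over all genes (limma, 0 of 16380 genes with an adjusted p under 0.05, or 0%). All 10 had passed the filter of a mean rlog of at least 3. Of the 10, 5 had a positive and 5 a negative difference, against 51.2% and 48.8% of all genes, with a median of -0.00064 against a median of 0.0064 over all genes tested, and the sizes ran from -0.53 in Nfkbia to 0.46 in Tlr9. At an unadjusted limma p under 0.05 stood only Nfkbia, 1 of 10, where 9.10% of all genes did. Nfkbia was also the only member whose 4 ko values did not overlap the 4 wild-type values, which 4.03% of all genes did.

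**Figure D1:**
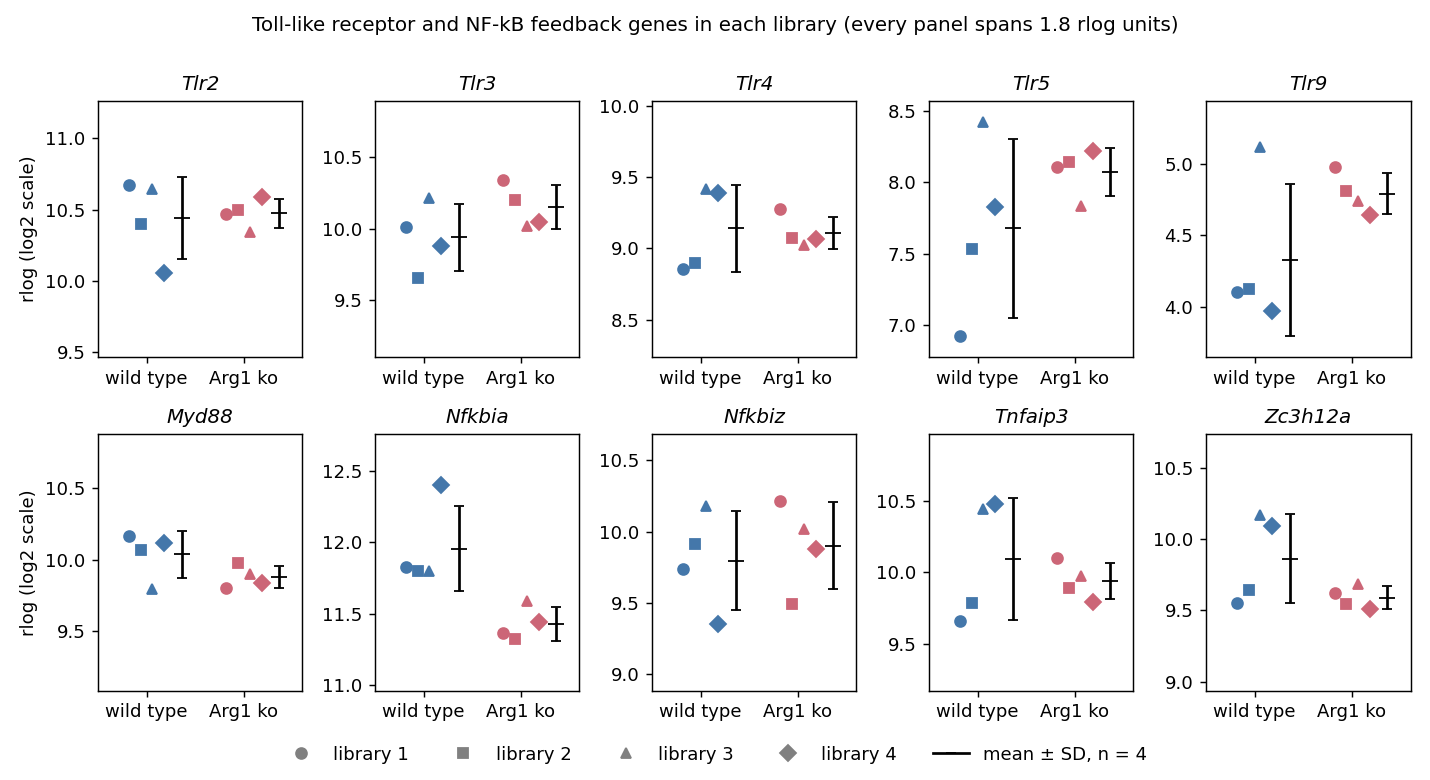
The rlog value (y axis, log2 scale, each panel spanning 1.8 units) of each of the 10 genes in the 4 wild-type (blue) and 4 Arg1 ko (red) libraries, with a marker shape per library number that does not pair libraries, and the mean ± SD in black. The Nfkbia values of Arg1 ko, at most 11.59, lie below all wild-type values, at least 11.80, while the groups overlap in the other 9 panels.

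Nfkbia (mouse ENSMUSG00000021025, chromosome 12, 55489410 to 55492647 on the minus strand, GRCm38) encodes IkB alpha, which holds NF-kB in the cytoplasm and is itself resynthesised on NF-kB's order. It was 11.83, 11.80, 11.80 and 12.40 in wild type 1 to 4 and 11.36, 11.32, 11.59 and 11.44 in Arg1 ko 1 to 4. The ko libraries were all lower, and wild type 4 stood well above the other 3 wild-type libraries, which lay within 0.03 of each other. Averages were 11.96 ± 0.30 (SD, n = 4) in the controls against 11.43 ± 0.12 (SD, n = 4) in the mutants, so that Arg1 ko differed by -0.53 (standard error 0.14), or 0.693 of the wild-type level. The limma p was 0.00433 before and 0.522 after adjustment over all genes. Without wild type 4 the difference was -0.38, and leaving out wild type 1 and 4 together gave -0.37. Over all fits that left out a single library, the difference ran from -0.58 to -0.38, with a limma adjusted p from 0.0588 to 0.819.

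The other 3 feedback genes had smaller differences and overlapping groups. Zc3h12a encodes Regnase-1, an endonuclease that degrades inflammatory mRNAs such as that of Il6. Its values were 9.55, 9.65, 10.17 and 10.09 in wild type and 9.62, 9.55, 9.68 and 9.51 in Arg1 ko, so that Arg1 ko differed by -0.27 (standard error 0.15; limma adjusted p = 0.522). The ko values were close together at the level of wild type 1 and 2, and the libraries labelled wild type 3 and 4 were higher. Tnfaip3 encodes A20, which edits ubiquitin chains and so shuts off signalling to the IkB kinases. It was 9.66, 9.79, 10.45 and 10.48 in wild type and 10.10, 9.89, 9.97 and 9.80 in Arg1 ko, so that Arg1 ko differed by -0.15 (standard error 0.19; limma adjusted p = 0.731). Here too the libraries labelled wild type 3 and 4 were highest and wild type 1 and 2 lowest, with the ko libraries between them. Nfkbiz encodes IkB zeta, a nuclear family member that helps NF-kB to switch on a set of late target genes. It was 9.74, 9.91, 10.18 and 9.35 in wild type and 10.22, 9.49, 10.02 and 9.87 in Arg1 ko, a difference of 0.11 (limma adjusted p = 0.819). Its ko values spread nearly as widely as its wild-type values, unlike those of the other members, with SDs of 0.30 in Arg1 ko and 0.35 in wild type. Against the libraries labelled wild type 3 and 4 alone the differences of Zc3h12a and Tnfaip3 were -0.54 and -0.52, neither of which passed (limma adjusted p = 0.374 and 0.374). As the higher wild-type libraries are the ones kept, these differences are larger by construction. In the opposite direction, Zc3h12a differed by -0.17 when the library labelled wild type 3 was left out, and Tnfaip3 by -0.036 without it and by -0.025 without wild type 4.

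The promoters of 3 feedback genes are shown because NF-kB is known to act on genes of this kind directly. RefSeq windows of 250 bases before to 50 bases after the start site were found for 8 of the 10 genes on GRCm38.p6, all but Tlr4 and Nfkbiz, and are printed on the gene's own strand. Capitals mark matches to the NF-kB consensus decamer on either strand, where overlapping matches run together.
Nfkbia, chr12:55492598-55492897, minus strand: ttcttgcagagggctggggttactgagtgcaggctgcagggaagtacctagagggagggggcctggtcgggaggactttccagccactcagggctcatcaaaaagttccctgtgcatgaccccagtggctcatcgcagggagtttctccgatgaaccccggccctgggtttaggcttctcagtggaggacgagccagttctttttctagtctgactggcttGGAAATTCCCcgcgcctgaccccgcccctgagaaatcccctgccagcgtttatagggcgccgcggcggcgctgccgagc
Tnfaip3, chr10:19015361-19015660, minus strand: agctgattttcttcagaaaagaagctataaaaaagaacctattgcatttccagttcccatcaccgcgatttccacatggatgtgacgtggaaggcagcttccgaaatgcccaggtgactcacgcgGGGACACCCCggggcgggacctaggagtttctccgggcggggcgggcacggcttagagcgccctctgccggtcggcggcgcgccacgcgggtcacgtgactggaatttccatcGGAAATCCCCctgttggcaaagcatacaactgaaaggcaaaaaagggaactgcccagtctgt
Zc3h12a, chr4:125127832-125128131, minus strand: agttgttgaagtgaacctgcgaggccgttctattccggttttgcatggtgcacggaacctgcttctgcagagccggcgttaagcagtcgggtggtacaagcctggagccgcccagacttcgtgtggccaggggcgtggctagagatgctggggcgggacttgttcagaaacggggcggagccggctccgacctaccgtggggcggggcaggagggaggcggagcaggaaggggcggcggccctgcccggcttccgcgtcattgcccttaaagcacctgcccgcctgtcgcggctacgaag
The Nfkbia window holds 1 match, which begins 29 bases before the start site. The Tnfaip3 window printed here holds 2, beginning 125 and 12 bases before it, while a second Tnfaip3 window at another RefSeq start holds 0, and the Zc3h12a window has none of these letters. Of the 8 members with a window, 4 held a match in at least 1 window, namely Nfkbia, Tnfaip3, Tlr2 and Tlr3, against 9.55% of 27018 mouse genes with such a window and 8.46% of all 32841 windows. A match of letters is a description and does not show that the factor binds there.

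Among the receptors, the difference was positive in 4 of 5. Tlr9 is an endosomal receptor for unmethylated CpG DNA. It was 4.10, 4.13, 5.12 and 3.97 in wild type 1 to 4 and 4.98, 4.81, 4.74 and 4.64 in Arg1 ko 1 to 4. Wild type 1, 2 and 4 were low, while the library labelled wild type 3 was higher than every ko library. The wild-type mean was 4.33 ± 0.53 (SD, n = 4) against 4.79 ± 0.14 (SD, n = 4) for Arg1 ko, so that Arg1 ko differed by 0.46 (standard error 0.23; limma adjusted p = 0.522). With that library set aside, Tlr9 differed by 0.73, and passed the test (limma adjusted p = 0.0284; all alternatives 0.0284 to 0.889). It was then the 1 of 10 members past the threshold, where 6.14% of all genes were. That library has the highest wild-type value, so its absence makes the difference larger by construction. Tlr9 was also the most weakly expressed member, ranking by mean above only 12.0% of the tested genes, where rlog shrinks differences most.

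Tlr5, the surface receptor for bacterial flagellin, was 6.92, 7.53, 8.42 and 7.83 in wild type and 8.11, 8.14, 7.83 and 8.22 in Arg1 ko. Wild type 1 was lowest by a wide margin and the library labelled wild type 3 highest, with the ko libraries inside that range. The difference was 0.40 (standard error 0.27; limma adjusted p = 0.562), and it became -0.053 without wild type 1 and 2. Tlr3, which binds double-stranded RNA in endosomes and signals without Myd88, was 10.01, 9.65, 10.21 and 9.88 in wild type and 10.34, 10.20, 10.02 and 10.05 in Arg1 ko. The groups overlapped, and the difference was 0.21 (standard error 0.13; limma adjusted p = 0.549), or 0.12 without wild type 2, the lowest library.

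Tlr2 and Tlr4, the surface receptors for bacterial lipoproteins and for lipopolysaccharide, had differences near 0. Tlr2 was 10.67, 10.40, 10.65 and 10.06 in wild type and 10.47, 10.50, 10.35 and 10.59 in Arg1 ko, so that Arg1 ko differed by 0.031 (standard error 0.14; limma adjusted p = 0.93). All 4 ko values lay inside the wild-type range, whose lowest value was wild type 4. Tlr4 was 8.86, 8.90, 9.42 and 9.39 in wild type and 9.28, 9.07, 9.02 and 9.06 in Arg1 ko, so that Arg1 ko differed by -0.033 (standard error 0.15; limma adjusted p = 0.933). Its wild-type libraries fell into a low pair, 1 and 2, and a high pair, those labelled 3 and 4, with every ko value between them. The sign of either difference changed when single libraries were left out, over a range of -0.098 to 0.11 for Tlr2 and -0.13 to 0.059 for Tlr4. The Tlr2 promoter window (chr3:83841559-83841858, minus strand) held the most matches to the NF-kB decamer among the members, 3 in all, of which those beginning 173 and 172 bases before the RefSeq start site overlap in a palindromic stretch. That start lies 159 bases downstream of the outermost Tlr2 start in GENCODE, and the one for Zc3h12a 41 bases upstream. The start of the printed Tnfaip3 window lies 247 bases downstream, that of Tlr3 700 and that of Myd88 1393, while that of Nfkbia coincides. Distances therefore depend on the annotation.
Tlr2: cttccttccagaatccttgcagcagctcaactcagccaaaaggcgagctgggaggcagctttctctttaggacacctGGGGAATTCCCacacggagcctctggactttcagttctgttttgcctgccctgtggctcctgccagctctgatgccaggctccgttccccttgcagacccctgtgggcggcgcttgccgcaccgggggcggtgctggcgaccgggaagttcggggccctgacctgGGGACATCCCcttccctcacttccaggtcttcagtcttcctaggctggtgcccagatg

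Myd88, the adaptor through which most of these receptors signal, was 10.17, 10.07, 9.80 and 10.12 in wild type and 9.80, 9.98, 9.90 and 9.83 in Arg1 ko. The library labelled wild type 3 lay with the ko libraries, and wild type 1, 2 and 4 were above all 4 of them. The difference was -0.16 (standard error 0.10; limma adjusted p = 0.557). When the library labelled wild type 3 was left out it was -0.24 (limma adjusted p = 0.104). In that fit 6.14% of all genes passed. The library left out has the lowest wild-type value of Myd88, so its absence makes the difference larger by construction. Exons of Myd88 share 290 bases with Acaa1a on the other strand, which had a mean rlog of 11.30. Exons of Tlr3 share 381 bases with the antisense gene Gm45542, which had a mean rlog of -0.97. Since the strand setting used for counting was not given in the sources used here, it is unknown whether reads of such pairs were kept apart.

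**Figure D2:**
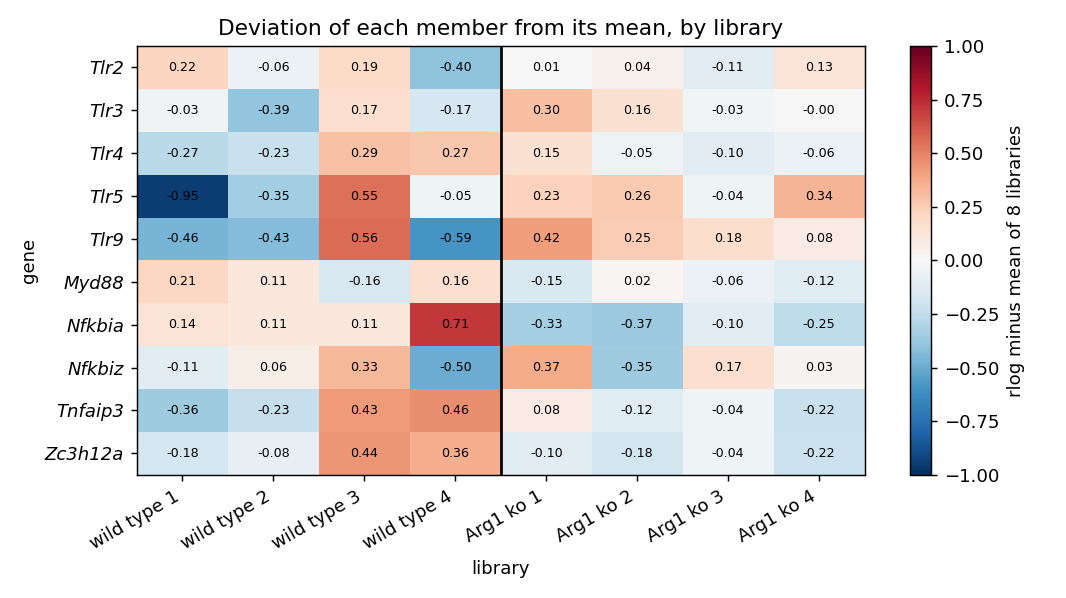
The rlog of each of the 10 genes (rows) minus its mean over the 8 libraries (columns), on a colour scale from -1 (blue) to 1 (red) with the value printed in each cell. Tlr4, Tnfaip3 and Zc3h12a are below their means in wild type 1 and 2 and above them in the libraries labelled wild type 3 and 4, and Nfkbia is 0.71 above its mean in wild type 4.

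The order of the levels was the same in both genotypes. It was set on rlog minus log2 of the length in kilobases of the longest transcript. On this scale Nfkbia was highest, at 11.30 in wild type and 10.77 in Arg1 ko, followed by Tlr2 at 8.85 in wild type and 8.88 in Arg1 ko and Myd88 at 8.74 in wild type and 8.58 in Arg1 ko. Zc3h12a, Tlr3, Nfkbiz, Tnfaip3 and Tlr4 came next, in that order, from 8.40 in wild type and 8.13 in Arg1 ko for Zc3h12a to 7.11 in wild type and 7.08 in Arg1 ko for Tlr4. Tlr5 was at 5.74 in wild type and 6.14 in Arg1 ko and Tlr9 at 2.53 in wild type and 3.00 in Arg1 ko. Ranges over the 8 libraries did not overlap between Nfkbia and Tlr2, whose means were 2.17 apart, nor between Tlr5 and Tlr9, with means 3.18 apart. Tlr4 and Tlr5 stood closer, the lowest Tlr4 value being 6.83 and the highest Tlr5 value 6.49, and Tlr5 itself ranged down to 4.99. From Tlr2 to Tlr4, each gene's range overlapped that of the next. Both genes of a pair come from the same libraries, so such overlap does not settle their order. Tnfaip3 was above Tlr4 in every library, while each other pair of these neighbours changed places in some library. The order was not tested.

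The members varied more among wild-type than among ko libraries. The SD was larger in wild type for all 10, with a median of 0.31 against 0.12, and this was also so for 90.9% of all genes tested (medians 0.26 and 0.10). The ratio of the SDs was 3.96 for Zc3h12a, 3.72 for Tlr9 and 3.70 for Tlr5, and lowest for Nfkbiz at 1.14. After each library's deviations were corrected for transcript length, a step chosen after seeing the data, the wild-type SD fell for 8 of the 10, where it fell for 65.0% of all genes with a known length. The median over the members was 0.31 before and 0.30 after, and over all these genes 0.26 and 0.21. The SD went from 0.43 to 0.23 for Tnfaip3, from 0.30 to 0.24 for Tlr4 and from 0.63 to 0.58 for Tlr5. Pearson r of each member with the long minus short measure of the 8 libraries was highest for Tlr5, at 0.95. It was 0.81 for Tlr4, 0.67 for Tnfaip3, 0.67 for Tlr9, 0.55 for Tlr3, 0.41 for Zc3h12a and 0.20 for Nfkbiz. It was negative for Nfkbia (-0.19), Tlr2 (-0.21) and Myd88 (-0.76). It was larger after correction for Nfkbia, from 0.30 to 0.41, and for Zc3h12a, from 0.31 to 0.36. The corrected differences were -0.42 for Nfkbia, -0.26 for Zc3h12a, -0.28 for Tnfaip3 and 0.36 for Tlr5, and none passed.

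**Figure D3:**
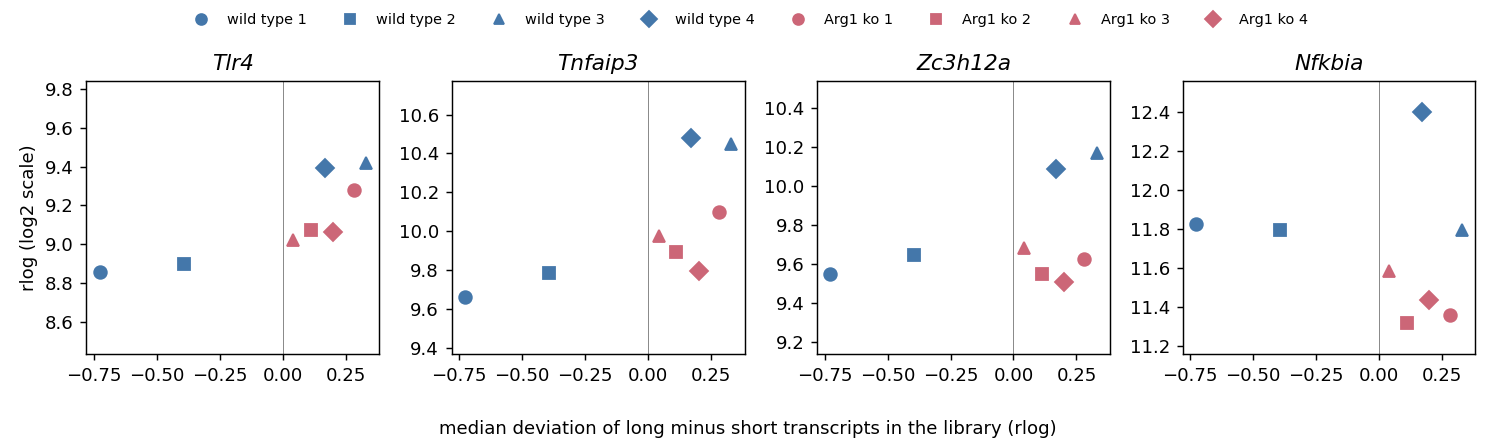
The rlog (y axes, log2 scale, each spanning 1.4 units) of Tlr4, Tnfaip3, Zc3h12a and Nfkbia against the median deviation of long minus that of short transcripts in each library (x axis, rlog), with wild type in blue and Arg1 ko in red. Wild type 1 and 2, at -0.73 and -0.39, stand to the left of the other 6 libraries and are low for Tlr4 and Tnfaip3. Tlr5 and Myd88, with Pearson r of 0.95 and -0.76 with this measure, are not drawn.

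The genes most like the members across the 8 libraries were taken from 7754 genes with an SD of at least 0.2. These correlations are descriptions over 8 libraries that share the splits given above. The 4 feedback genes did not share a profile, as Pearson r between them ran from -0.45 (Nfkbia and Nfkbiz) to 0.92 (Tnfaip3 and Zc3h12a). Their mean was most like Apold1, a gene of activated endothelium (Pearson r = 0.93, Spearman rho = 0.88, r = 0.76 without the 2 libraries farthest from the median). Next came Egr1, an immediate early transcription factor, with r = 0.90, rho = 0.74 and r = 0.55 without these libraries, the libraries left out being those labelled wild type 3 and 4. Tlr2 was most like Cd300lb, a myeloid surface receptor (r = 0.98, rho = 0.95, and 0.96 without the farthest 2), and Ptafr, the receptor for platelet-activating factor (r = 0.98, rho = 0.98, and 0.98). Tlr9 was most like Itgb2, the beta chain of leukocyte integrins (r = 0.99, rho = 0.98, and 0.99). Tlr4 was most like Cadps, which primes secretory vesicles in neurons and endocrine cells (r = 0.98, rho = 0.98, and 0.997).

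Around these members, 84 other genes of the pathway were measured, of which 78 passed the filter. None of the 78 passed the limma test over all genes. Their median difference was -0.0064, with 38 positive and 40 negative. At an unadjusted limma p under 0.05 were 1 with a positive and 7 with a negative difference, where 4.73% and 4.37% of all genes were. The groups did not overlap for 2 of the 78, where those of 4.03% of all genes did not. These were Tlr12, which was higher in Arg1 ko, and Cxcl1, which was lower.

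**Figure D4:**
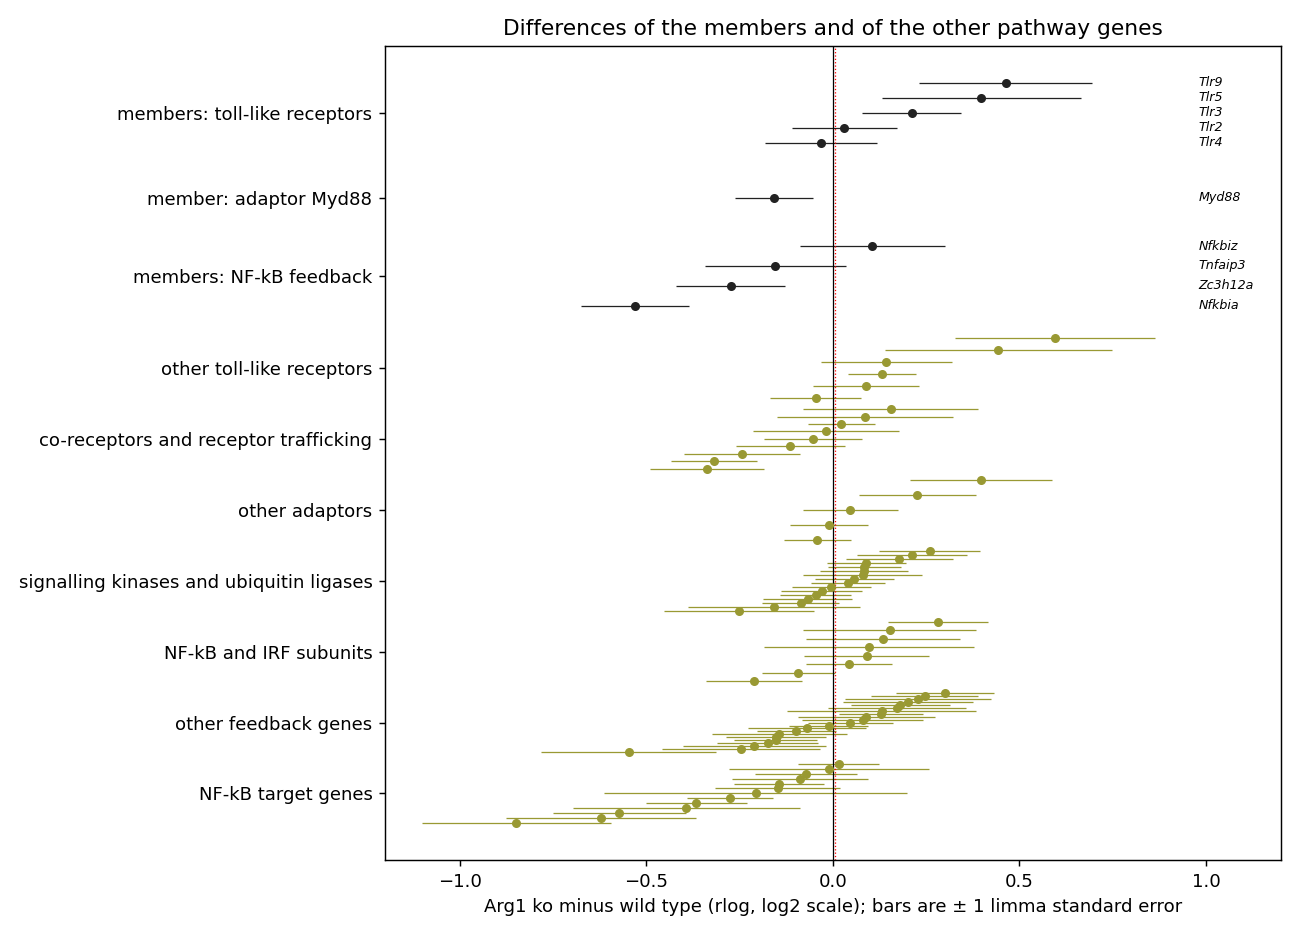
The difference of Arg1 ko minus wild type (x axis, rlog, log2 scale) of each member (black) and each tested pathway gene (olive) by role (y axis), with bars of 1 limma standard error to either side and a dotted line at the median of all genes tested. Of the 13 NF-kB target genes 12 lie below 0, while the members are split into 5 above and 5 below.

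Of 6 other Toll-like receptors tested 5 had a positive difference. Tlr12, a mouse receptor for the parasite protein profilin, was 5.95 ± 0.65 (SD, n = 4) in wild type against 6.55 ± 0.054 (SD, n = 4) in Arg1 ko, differing by 0.60 (limma adjusted p = 0.522). Its values were 6.49, 5.73, 6.45 and 5.13 in wild type 1 to 4, with 2 libraries low and 2 close to the ko range of 6.50 to 6.62, and without wild type 4, the lowest, the difference was 0.32. Tlr8, an endosomal receptor, differed by 0.44 with a wild-type SD of 0.68. Tlr1, the partner of Tlr2 and the most highly expressed of these by rlog, was 10.53 ± 0.13 (SD, n = 4) and 10.66 ± 0.055 (SD, n = 4), and reads of its close copy Tlr6 may be counted with it. Among 9 co-receptors and trafficking genes 6 were negative. Cd14, the lipopolysaccharide co-receptor of Tlr4, was 9.94, 9.79, 9.59 and 9.60 in wild type and 9.37, 9.38, 9.61 and 9.29 in Arg1 ko. Its difference was -0.32 (limma adjusted p = 0.522, unadjusted 0.02), and Lbp, the lipopolysaccharide-binding protein, differed by -0.34. The Cd14 groups overlapped through a single ko library, Arg1 ko 3. Unc93b1, which carries receptors to endosomes, differed by -0.054.

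Further down the pathway, none of the genes passed with all libraries. Of 5 other adaptors 3 were positive, with Pik3ap1 at 0.40 and the Myd88 partner Tirap at 0.23. Pik3ap1, which links receptors to phosphoinositide 3-kinase, passed when the library labelled wild type 3 was left out (0.60, limma adjusted p = 0.0324, all alternatives 0.0324 to 0.872). In that fit 6.14% of all genes passed. That library has the highest wild-type value of Pik3ap1, so its absence makes the difference larger by construction. Ticam1, the adaptor of Tlr3, was 10.12 ± 0.099 (SD, n = 4) and 10.08 ± 0.073 (SD, n = 4). Of 16 signalling kinases and ubiquitin ligases 9 were positive, between -0.25 and 0.26. The latter was Traf3, which steers signals toward interferon, and Ikbke, an interferon-related kinase, was at 0.21. Tab2, a scaffold of the kinase Tak1, had the highest rlog of this list and differed by -0.030. Of 8 NF-kB and IRF subunits 6 were positive. Nfkb1, the precursor of the p50 subunit, was at 10.67 ± 0.28 (SD, n = 4) against 10.95 ± 0.058 (SD, n = 4), differing by 0.28 (limma adjusted p = 0.522), while Rela, the p65 subunit, differed by -0.21 (limma adjusted p = 0.54) and Irf7 by 0.15.

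The 21 other feedback genes were split into 11 positive and 10 negative. Zfp36, which binds and destabilises cytokine mRNAs, was 11.90, 11.69, 11.95 and 12.88 in wild type and 11.58, 11.24, 11.79 and 11.61 in Arg1 ko. Wild type 4 was the highest library, as for Nfkbia, and the groups overlapped. The difference was -0.55 (standard error 0.23; limma adjusted p = 0.522, unadjusted 0.0418), and -0.29 without wild type 4. N4bp1, an inhibitor of NF-kB signalling, went the other way, with a difference of 0.30 (limma adjusted p = 0.522), and passed when the library labelled wild type 3 was left out (0.43, limma adjusted p = 0.0324, all alternatives 0.0324 to 0.872). In that fit 6.14% of all genes passed, and the library left out has the highest wild-type value of N4bp1, which makes the difference larger by construction.

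Of the 18 NF-kB target genes listed 13 were tested, and 12 of these had a negative difference, where 48.8% of all genes did. The median of the 13 was -0.21 against 0.0064 over all genes. At an unadjusted limma p under 0.05 were 5 with a negative difference, where 4.37% of all genes were. Lower values of several of these targets were known when the list was drawn up, so the counts are not independent evidence of a direction. Cxcl1, a neutrophil-attracting chemokine, was 3.96, 4.65, 4.24 and 3.83 in wild type and 3.77, 3.37, 3.62 and 3.64 in Arg1 ko. Every ko value lay below the wild-type values, though by as little as 0.06. By mean Cxcl1 ranked above only 7.02% of the tested genes, where rlog shrinks differences most. The difference was -0.57 (limma adjusted p = 0.522, unadjusted 0.00907). Lcn2, which sequesters bacterial siderophores, was 8.80 ± 0.57 (SD, n = 4) against 7.95 ± 0.23 (SD, n = 4), differing by -0.85 (limma adjusted p = 0.522), and passed when the library labelled wild type 3 was left out (-1.10, limma adjusted p = 0.0286, all alternatives 0.0286 to 0.872). In that fit 6.14% of all genes passed, and the library left out has the lowest wild-type value of Lcn2, which makes the difference larger by construction. Sod2, the mitochondrial superoxide dismutase and the target of highest rlog, was 11.24 ± 0.24 (SD, n = 4) and 11.10 ± 0.043 (SD, n = 4). Il6 and Il12b, whose mRNAs Regnase-1 degrades, had means of 2.19 and 2.93, under the filter.

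Markers of other cell types were read beside these values, as log2 of the summed linear level of each list. None of the 10 lists had a marker listed at 0. For 8 neutrophil markers the sum was 8.88 to 10.69 in wild type and 8.86 to 9.34 in Arg1 ko, with 4 of 6 tested markers lower. Ly6g, with the highest mean of this list, weighs most in the sum and had its largest difference, -1.35. Mmp9 (0.19) and Csf3r (0.28) were higher in Arg1 ko. For 6 red blood cell markers it was 12.60 to 14.74 in wild type and 12.58 to 13.33 in Arg1 ko, with 5 of 5 tested markers lower. For 10 monocyte and macrophage markers it was 13.85 to 14.32 in wild type and 13.96 to 14.08 in Arg1 ko, with 6 of 10 lower. For 6 B cell markers, a cell type known for Tlr9, it was 7.53 to 9.07 in wild type and 7.84 to 8.11 in Arg1 ko, with 5 of 6 lower. The library labelled wild type 3 was highest, as for Tlr9. Wild type 1, at 8.41, was above every ko library in this sum, while its Tlr9 value was below every ko library. For 6 dendritic cell markers it was 8.18 to 8.90 in wild type and 8.46 to 8.71 in Arg1 ko, with 5 of 6 higher and again the library labelled wild type 3 highest. Over the 10 lists, Pearson r of Tlr9 with the sum ran from -0.87 (neutrophil) to 0.87 (dendritic cell), and was 0.53 for B cells. The sum was 9.42 to 10.30 in wild type and 9.96 to 10.25 in Arg1 ko for 6 T cell markers, 14.24 to 14.55 in wild type and 14.56 to 14.67 in Arg1 ko for 6 fibroblast markers and 11.59 to 12.14 in wild type and 11.78 to 11.94 in Arg1 ko for 6 endothelial markers. For 7 epithelial markers it was 17.45 to 17.85 in wild type and 17.48 to 17.72 in Arg1 ko, and for 6 smooth muscle markers 16.47 to 17.00 in wild type and 16.66 to 16.84 in Arg1 ko. The groups did not overlap in the fibroblast sum, which was higher in Arg1 ko, with 4 of 6 markers higher and 2 lower. The largest differences were those of the collagen genes Col1a1 (0.83) and Col3a1 (0.70), while Dcn (-0.11) and Thy1 (-0.049) were lower. The part of these cell types in the differences of the 10 genes was not tested.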

How the data were processed

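Messenger RNA of 8 colon samples was sequenced, 4 per genotype; libraries came from 1000 ng of total RNA, per the labels' protocols. The authors deposited regularised log2 values (rlog) of each gene and library in a single table. DESeq2 1.16.1, featureCounts, Subread 1.5.3, STAR 2.5.2b, BWA 0.7.14-r1136 and the build GRCm38 are named in the submitters' processing notes; their order, options and strand setting were not given in the sources used here. Shrinkage understates differences of genes with few reads, and since counts were not kept, the depth is unknown.

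Columns were matched to samples by the labels. Symbols were found for 53274 of 53465 Ensembl IDs, and all 161 list symbols were in the table. Positions and transcript lengths are from GENCODE M21 (GRCm38), promoters from RefSeq (GRCm38.p6). The 16380 genes whose mean rlog reached 3 (16361 with a known length) entered a limma 3.58.1 fit (R 4.3.3) with a variance prior that follows the mean, two-sided, no covariate, Benjamini-Hochberg adjustment over all genes and a threshold of 0.05. The labels list separate samples from mice and littermate controls, without saying that each sample is 1 animal or which are related, so p-values cover no more than the spread of such samples. Replicates are numbered in accession order, which pairs nothing. Sample numbers in the labels run separately for each genotype, so an unlabelled batch and the genotype cannot be told apart. The members and lists were chosen with earlier results of these data known. Named are the 10 members, Arg1, and from each pathway list the 2 genes of smallest p and that of highest mean rlog; Il6, Il12b, Acaa1a, Gm45542, Epcam and Myh11 were added after their values were seen. Likeness was Pearson's r over 8 libraries, leaving out antibody and T-cell receptor segments, predicted genes and pseudogenes; of the 5 nearest genes per profile, the first 1 or 2 are named. Alternatives were other filters, scalings, priors and thresholds, leaving out libraries, and, chosen after seeing the data, a length correction (spline with 5 degrees of freedom) and leaving out wild type 1 and 4 together.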

Additional observations from a re-analysis of the deposited data

Results flagged for a closer look

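In 31 genes, each group of 4 was examined for a library far from the other 3. These genes are the 10 members, Arg1 and the 20 named pathway genes. Such a library was found in 3 of 62 groups, near the rate of about 1 in 20 that chance gives in independent groups. The groups share the same libraries and many of the pathway genes were named by small p, so that rate is only a rough guide. Nfkbia was 12.40 in wild type 4, against 11.80 to 11.83 in the other wild-type libraries. Tlr9 was 5.12 in the library labelled wild type 3, against 3.97 to 4.13 in the others. Arg1 was 5.02 in the library labelled wild type 3, against 5.57 to 5.59 in the others.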

How the results depend on the processing

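No gene that was tested passed in 17 of the 18 alternatives, in which 13885 genes with 9 members (means of at least 5) to 28605 genes (no filter) were tested. Leaving out single libraries gave 0 to 1005 genes, 0 to 1 members and 0 to 3 pathway genes, all of the calls coming without the library labelled wild type 3; these were Tlr9 among the members and Pik3ap1, N4bp1 and Lcn2 among the pathway genes. Without that library 6.14% of all genes passed, against 3 of the 78 pathway genes tested. The Arg1 difference ranged from -0.51 to -0.31 over the fits that left out single libraries. Among the members, Tlr3, Tlr9, Myd88, Nfkbia, Tnfaip3 and Zc3h12a kept their direction in every alternative that tested them, Tlr9 being left out by the filter at a mean of 5. With single libraries left out, the difference ran from -0.098 to 0.11 for Tlr2, -0.13 to 0.059 for Tlr4, -0.041 to 0.24 for Nfkbiz, -0.17 to 0.051 for Unc93b1, -0.086 to 0.068 for Tab2 and -0.075 to 0.32 for Irf7. Without wild type 1 and 2 the sign changed for Tlr5 (-0.053), Tlr8 (-0.035), Tirap (-0.061), Unc93b1 (0.14) and Sod2 (0.056). Without wild type 1 and 4 it changed for Tlr2 (-0.047), Nfkbiz (-0.14) and Tab2 (0.033), and with quantile normalisation for Tab2 (0.018). The cause was not tested. Length correction and leaving out wild type 1 and 4 were chosen after seeing the data. Depth is unknown, so low expression limits Tlr9 most among the members, and Cxcl1 among the pathway genes named had a lower mean still. No paired analysis was possible because the labels give no replicate numbers shared by the groups.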
